A study of Mus musculus with 4 samples.

Results

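Translation initiation and elongation factors are the proteins that place a ribosome on an mRNA and then carry it along the coding sequence. Their genes were taken by name: every gene whose symbol starts with Eif or Eef and a digit, except Eif2s3x and Eif2s3y, which were left out by name. The rule used no measured value and gave 68 genes of the 24087 in the deposited table (70 symbols matched, and 2 were left out). RNA-seq was done on splenic regulatory T (Treg) cells sorted as CD3+CD4+YFP+ from steady-state C57BL/6 mice. The KO mice were Foxp3Cre-YFPSetd2f/f, with both Setd2 alleles floxed, and the CTRL mice were Foxp3Cre-YFPSetd2f/+ littermates with 1 floxed allele, so that the Treg cells of both genotypes expressed Cre and YFP from the Foxp3 locus and the comparison is between the loss of both copies and the loss of 1. Each genotype had 2 libraries (CTRL 1, CTRL 2, KO 1 and KO 2), each made from about 1000000 cells pooled from 2 mice, and the methods give an age of 6 to 12 weeks for mice of in vivo experiments in general, with none stated for these pools. The p-values therefore measure the spread between pools, and in bulk RNA a smaller share of cells expressing a gene and less RNA per cell cannot be told apart. Setd2 encodes the enzyme that places H3K36me3, the histone mark found along the bodies of transcribed genes.

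Initiation starts when the small ribosomal subunit, loaded with eIF1, eIF1A, eIF3, eIF5 and the initiator tRNA brought by eIF2, is recruited to the mRNA cap by the eIF4F complex, which joins the cap-binding protein eIF4E, the scaffold eIF4G and the RNA helicase eIF4A. In elongation, eEF1A delivers aminoacyl-tRNA, the eEF1B proteins recharge eEF1A with GTP, eEF2 moves the ribosome on by a codon, and eIF5A helps it through stretches that are hard to join. Activated T cells raise protein synthesis strongly, in part through mTORC1, which frees eIF4E from the 4E-BP repressors, and kinases that phosphorylate eIF2 lower initiation under stress.

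The reads behind the libraries, from at least 30578092 in CTRL 1 to at least 33186372 in KO 2, were recovered from the steps of the FPKM values (fragments scaled by gene length and library total). CTRL 1 had 19100 genes above 0, against 15913 to 16410 in the other libraries. Setd2 stood at 23.4 and 25.3 FPKM in the CTRL libraries and 21.3 and 19.5 FPKM in the KO libraries (log2 fold change -0.24, SE 0.076, adjusted p = 0.0970 by limma), and the difference did not pass the threshold of 0.05. The value sums the whole gene, so it does not show the floxed part alone and checks the labels only in part. The Treg genes Foxp3 (121 and 139.8 FPKM in CTRL and 112 and 119 in KO) and Ctla4 (546 and 542 FPKM in CTRL and 656 and 534 in KO) were well expressed in all 4 libraries. None of the 5 Treg, 3 T cell, 4 B cell, 3 plasma cell, 2 CD8, 4 myeloid or 3 erythroid marker genes passed the threshold, and Sdc1, Cd8a and Hbb-bs among them were too low to be tested. The summed FPKM of the B cell markers was 21.6, 18.3, 31.3 and 18.3 in CTRL 1, CTRL 2, KO 1 and KO 2, and that of the erythroid markers 12.2, 2.22, 19.9 and 5.02. The summed FPKM of the myeloid markers was 154.0, 96.2, 193 and 79.1 in CTRL 1, CTRL 2, KO 1 and KO 2, and that of the plasma cell markers 39.2, 14.9, 46.4 and 16.8, so all 4 sums were higher in the library numbered 1 than in the library numbered 2 of either genotype. Of 8 proliferation genes, 5 passed the threshold as higher in KO, against 5.1% of all genes tested. In the others, Ccnb1, Pcna and Tyms, both KO libraries also lay above both CTRL libraries. The summed FPKM of the 8 was 359.7 and 307 in CTRL against 468.8 and 458 in KO. The part of any of these marker or proliferation genes in the results below was not tested.

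The family was abundant, and few of its members passed the threshold for a difference between the genotypes. Its 68 genes together made up 2.37% and 2.40% of all FPKM in the CTRL libraries and 2.29% and 2.23% in the KO libraries. A total of 63 of the 68 members had at least 1 FPKM in at least 2 libraries and were tested, in the limma fit over 11399 genes on log2(FPKM + 1). The other 5 were at or near 0: Eif4e1b, Eef1akmt3 and Eif1-ps3 were listed at 0 in all 4 libraries, Eif4a3l1 reached 0.0720 FPKM and Eef1a2, the muscle and neuron form of eEF1A, 0.0149 FPKM. Median expression over the tested members was 40.4 FPKM, against 12.5 over all genes tested, and at least 118 reads lay behind each tested member in each library.

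At an adjusted p under 0.05 (Benjamini-Hochberg over all genes tested), 2 members were higher and 1 was lower in Setd2-deficient Treg cells. These 3 of 63 (4.76%) compare with 9.75% of all genes tested, 5.1% higher and 4.65% lower. The balance of directions depended on the scaling. With median-ratio scaling 4 members were higher and 1 lower, beside 712 higher and 470 lower over all genes tested. With quantile normalization 1 was higher and 5 lower, beside 524 higher and 479 lower over all genes tested. At an unadjusted p under 0.05, 10 members were higher (15.9%, against 16.3% of all genes tested) and 7 lower (11.1%, against 18.4%). These shares over all genes, and the 9.75% past the threshold, apply beside the counts of the role groups below as well. The median log2 fold change of the tested members was -0.014, and 0.0094 under median-ratio scaling, against -0.022 over all genes. The median size of the change was 0.11 on the log2 scale for members and 0.16 for all genes, and 15 members (23.8%) reached a size of 0.2, against 41.9% of all genes. For 62 of the 63 members the 95% interval of the log2 fold change lay inside -0.5 to 0.5, and for 32 inside -0.3 to 0.3. In 38 members (60.3%) the CTRL and KO libraries did not overlap, 16 with KO above and 22 with KO below, against 64.5% of all genes tested.

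**Figure D1:**
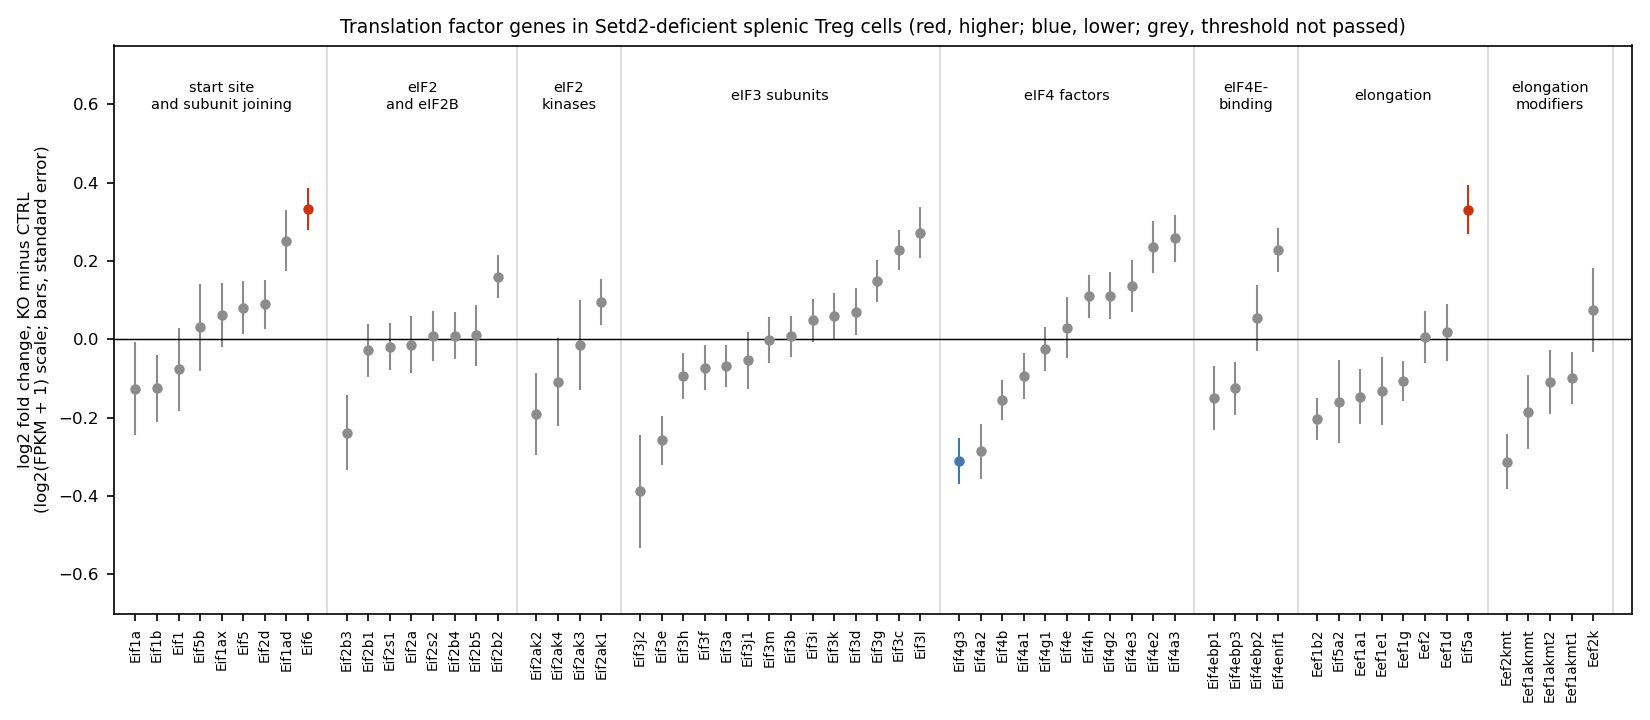
Log2 fold change (KO minus CTRL, log2(FPKM + 1) scale) of each of the 63 tested members, ordered by role; points are limma estimates from 2 libraries per genotype and bars are standard errors. Most points lie between -0.2 and 0.2, and Eif6 and Eif5a (red) and Eif4g3 (blue) passed the threshold.

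The 3 members past the threshold act at different steps. Eif6 encodes the factor that holds the large ribosomal subunit apart from the small one and takes part in making large subunits. It lies on chromosome 2 (chr2:155819832-155826925 on GRCm38, minus strand) and stood at 41.4 and 40.7 FPKM in the CTRL libraries and 52.4 and 51.4 FPKM in the KO libraries. Both KO libraries were above both CTRL libraries, with a log2 fold change of 0.33 (SE 0.053, adjusted p = 0.0378 by limma with Benjamini-Hochberg), or 26.6% on the FPKM scale. A gene on the other strand, Gm16098, overlaps Eif6, and whether the authors' counting used strand was not given in the sources used here.

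Eif5a was higher as well. It and its paralog Eif5a2 encode the proteins that carry hypusine, an amino acid made from lysine after translation, and the enzymes that make hypusine are known to matter for the lineage behaviour of helper T cells. Its FPKM was 291 and 314 in the CTRL libraries and 375 and 385 in the KO libraries (log2 fold change 0.33, SE 0.063, adjusted p = 0.0430 by limma). KO was thus 25.8% above CTRL, and the groups did not overlap. Eif5a2 had 3.46 and 3.09 FPKM in CTRL and 2.68 and 2.97 FPKM in KO (log2 fold change -0.16, SE 0.11, adjusted p = 0.341). The FPKM of Eif5a was 84.1 and 102 times that of Eif5a2 in the CTRL libraries and 139.8 and 130.0 times in the KO libraries, so the ratio was higher in both KO libraries. Hypusine is made on a lysine whose codon is number 50 in both genes. Codons 46 to 55 around it are shown to let the paralogs be compared where the modification is made, read from GENCODE transcripts on GRCm38 in coding direction, with the lysine codon in capitals. They come from exon 3 of Eif5a (chr11:69919151-69919180, minus strand) and exon 2 of Eif5a2 (chr3:28782187-28782216, plus strand).
Eif5a: tcgaagactggcAAGcatggccatgccaag
Eif5a2: tccaagactgggAAGcatggtcatgccaag
The windows differ at 3 of 30 bases and at 0 of their 10 amino acids. The reads of Eif5a could nevertheless be told from those of its paralog, since 0.7% of its 100-base stretches were found in another gene (a pseudogene and 1 other gene) and 0% of those of Eif5a2.

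Eif4g3 encodes a form of the scaffold eIF4G, which holds eIF4E and eIF4A together at the cap, and it was the member that fell. It lies on chromosome 4 (chr4:137993022-138208508 on GRCm38, plus strand). Its FPKM was 48.3 and 49.8 in the CTRL libraries and 38.3 and 40.4 in the KO libraries, with no overlap (log2 fold change -0.31, SE 0.059, adjusted p = 0.0425 by limma). None of the 3 calls held when any 1 library was left out: without CTRL 1, CTRL 2, KO 1 or KO 2 in turn 0 members passed the threshold, although 6 to 7 were higher and 5 to 7 lower at an unadjusted p under 0.05, and 0 or 1 of all genes passed. The log2 fold changes then ran from 0.32 to 0.35 for Eif6, from 0.27 to 0.39 for Eif5a and from -0.35 to -0.27 for Eif4g3. No member passed either when all genes above 0 were tested (10 higher and 6 lower at an unadjusted p under 0.05) or when limma's intensity trend was left out (8 higher and 7 lower). Quantile normalization kept Eif6 and Eif4g3 and gave Eif5a a log2 fold change of 0.21 (adjusted p = 0.0654 by limma). When each library's trend with exon length was removed, Eif6 alone passed (adjusted p = 0.0431), and the values for Eif5a and Eif4g3 were 0.29 (adjusted p = 0.0600) and -0.21 (adjusted p = 0.0811) by limma.

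A further 10 members had an adjusted p between 0.05 and 0.1 in the limma fit and are given as values only. The 6 with higher means in KO were Eif3c, Eif4a3, Eif3l, Eif4enif1, Eif4e2 and Eif1ad, with log2 fold changes of 0.23 to 0.27. The 4 with lower means were Eef2kmt, Eif4a2, Eif3e and Eef1b2, with log2 fold changes of -0.31 to -0.20. In each of the 10 the KO libraries lay on one side of the CTRL libraries. A selection by p favours such genes, and 64.5% of all genes tested had no overlap. With limma-voom on the recovered reads, 6 of them passed the threshold: Eif3c, Eif3l, Eif4a3 and Eif4enif1 as higher and Eif3e and Eif4a2 as lower. That fit called more genes in general, 16.6% of all genes tested against 9.75% in the main fit.

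**Figure D2:**
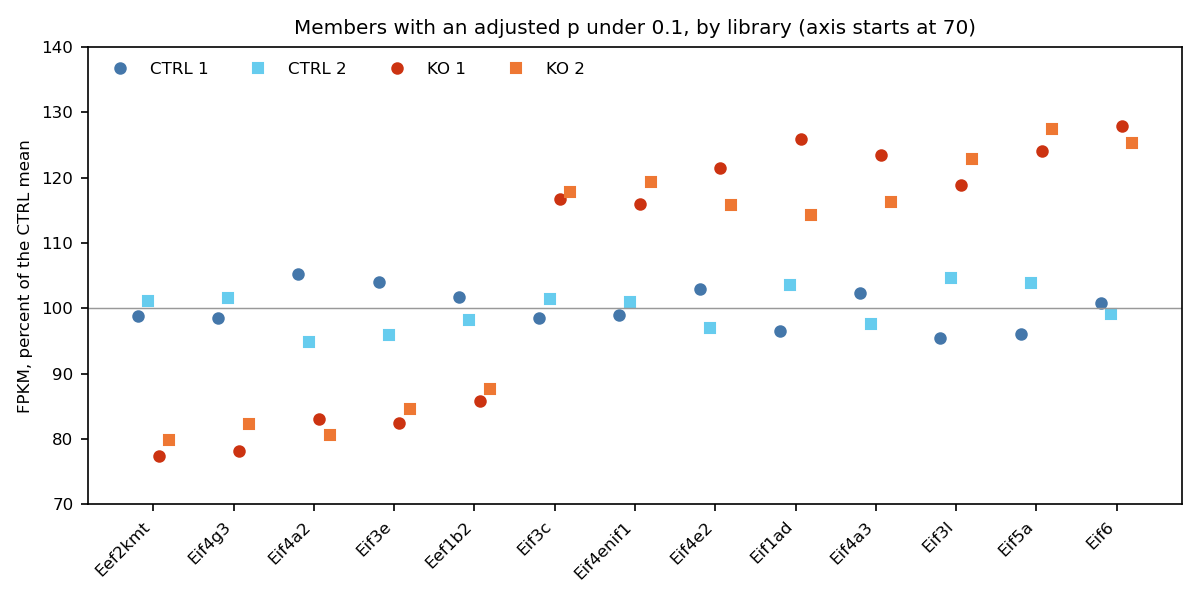
FPKM of the 13 members with an adjusted p under 0.1, each library given as a percent of the gene's CTRL mean (axis from 70 to 140); blue symbols are CTRL libraries and red or orange symbols KO libraries. In all 13 the KO points lie on one side of both CTRL points, which the selection by adjusted p favours. They range from Eif6, 26.6% above the CTRL mean, to Eef2kmt, 21.4% below it.

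Among the 9 factors that work on the small subunit and at subunit joining, Eif6 rose and the other 8 did not pass the threshold, with a group median of 0.062 on the log2 scale. Eif1, which guards the choice of start codon, was the most abundant at 477 and 498 FPKM in CTRL and 509.8 and 419 FPKM in KO. KO 2 was the lowest and KO 1 the highest of these 4 libraries, so the genotypes overlapped (log2 fold change -0.077, SE 0.11). Its close paralog Eif1b stood at 44.98 and 39.4 FPKM in CTRL and 37.1 and 39.9 FPKM in KO. Eif1ad, which encodes a protein related to eIF1A, had 19.6 and 21.1 FPKM in CTRL and 25.6 and 23.3 FPKM in KO (log2 fold change 0.25, SE 0.077, adjusted p = 0.0917 by limma). It shared 11% of its 100-base stretches with Banf1, which overlaps it on the other strand. Of the eIF1A genes, the X-linked Eif1ax (58.1 and 51.7 FPKM in CTRL and 59.7 and 55.0 in KO) was expressed above Eif1a (22.6 and 18.1 FPKM in CTRL and 19.4 and 17.6 in KO), and the genotypes overlapped in both. Eif5, the GTPase-activating protein of eIF2, had 117 and 115 FPKM in CTRL and 129 and 117 FPKM in KO. Eif5b, the GTPase that joins the subunits, had 14.8 and 18.1 FPKM in CTRL and 16.0 and 17.5 FPKM in KO. Eif2d, which can bring tRNA to the ribosome without GTP, had 21.6 and 20.8 FPKM in CTRL and 22.1 and 23.2 FPKM in KO, and none of these 3 passed the threshold.

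None of the 8 genes of eIF2, eIF2A and the eIF2B exchange factor passed the threshold (limma, median log2 fold change -0.0026). At an unadjusted p under 0.05, 1 was higher and 0 were lower, against 16.3% and 18.4% of all genes tested. The alpha subunit gene Eif2s1, whose protein is the target of the eIF2 kinases, had 30.3 and 30.8 FPKM in CTRL and 31.0 and 29.3 FPKM in KO. The 95% interval of its log2 fold change ran from -0.17 to 0.14. Eif2s2, the beta subunit, had 38.8 and 41.0 FPKM in CTRL and 39.0 and 41.3 FPKM in KO. Eif2a, whose protein can bring initiator tRNA without the eIF2 complex, had 32.4 and 29.2 FPKM in CTRL and 29.9 and 31.0 FPKM in KO. The genotypes overlapped in all 3 of these genes. Of the 5 eIF2B genes, Eif2b2 had 37.2 and 38.5 FPKM in CTRL and 42.0 and 42.8 in KO (log2 fold change 0.16, SE 0.055, adjusted p = 0.115). Eif2b3, of the catalytic part, had 3.72 and 3.61 FPKM in CTRL and 3.09 and 2.83 in KO (log2 fold change -0.24, SE 0.10, adjusted p = 0.156). These were the 2 genes of the group whose libraries did not overlap, with KO above in Eif2b2 and below in Eif2b3. Eif2b1, Eif2b4 and Eif2b5 had log2 fold changes of -0.028, 0.0091 and 0.0099, each smaller in size than its standard error.

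The 4 eIF2 kinases each answer a different stress, and none passed the threshold (limma, 0 also at an unadjusted p under 0.05). Eif2ak1, the heme-regulated kinase, was the most abundant at 29.5 and 30.0 FPKM in CTRL and 31.1 and 32.7 FPKM in KO (log2 fold change 0.10, SE 0.059). Eif2ak2, the kinase PKR that senses double-stranded RNA, had 12.4 and 14.2 FPKM in CTRL and 10.7 and 12.4 FPKM in KO (log2 fold change -0.19, SE 0.11). Eif2ak3, the kinase PERK of the endoplasmic reticulum, had 8.94 and 9.21 FPKM in CTRL and 10.0 and 8.01 FPKM in KO, with KO 1 highest and KO 2 lowest. Eif2ak4, the kinase GCN2 that senses missing amino acids, had 5.46 and 4.84 FPKM in CTRL and 5.10 and 4.32 FPKM in KO, and its libraries overlapped too. The intervals were wide for Eif2ak3 (-0.31 to 0.28) and Eif2ak4 (-0.40 to 0.18).

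The 14 genes of eIF3, the large scaffold that binds the small subunit, gave no call (limma). At an unadjusted p under 0.05, 3 were higher and 2 lower, against 16.3% and 18.4% of all genes tested. The median log2 fold change of the 14 was 0.0032 (-0.077 with quantile normalization). Subunits of 1 complex were expressed at unlike levels: over the 12 genes other than Eif3j1 and Eif3j2, the FPKM of the highest was 9.15, 9.63, 8.46 and 8.16 times that of the lowest in CTRL 1, CTRL 2, KO 1 and KO 2. Eif3d, which can bind the cap of some mRNAs itself, was the lowest in every library with 41.2 and 39.4 FPKM in CTRL and 41.5 and 43.3 FPKM in KO, and it shared 32.0% of its 100-base stretches with Gm17638 on the other strand. Eif3h (377 and 360.3 FPKM in CTRL and 337 and 353 in KO) and Eif3f (357 and 379.7 FPKM in CTRL and 351 and 349.5 in KO) took the highest place in turn.

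Differences between the genotypes had both signs within the complex. Eif3c, a core subunit, had 93.9 and 96.6 FPKM in CTRL and 111 and 112 FPKM in KO (log2 fold change 0.23, SE 0.051, adjusted p = 0.0547 by limma). Eif3l had 91.5 and 100.3 FPKM in CTRL and 114 and 118 FPKM in KO (log2 fold change 0.27, SE 0.066, adjusted p = 0.0616). Eif3e had 235 and 217 FPKM in CTRL and 186 and 191 FPKM in KO (log2 fold change -0.26, SE 0.063, adjusted p = 0.0619). KO was thus above CTRL in Eif3c and Eif3l and below it in Eif3e, with no overlap in any of the 3, while the core genes Eif3a and Eif3b had log2 fold changes of -0.069 and 0.0083. Eif3g (0.15), Eif3k (0.060), Eif3i (0.048), Eif3m (-0.0018), Eif3f (-0.072) and Eif3h (-0.095) did not pass either on the log2 scale. The lowest log2 fold change of any member belonged to Eif3j2, a near copy of Eif3j1, with 2.08 and 2.63 FPKM in CTRL and 1.38 and 1.74 FPKM in KO (log2 fold change -0.39, SE 0.14, adjusted p = 0.131). This value is uncertain, since 84.0% of the 100-base stretches of Eif3j2 and 44.2% of those of Eif3j1 occur in another gene, each in the other among them. Eif3j1 itself had 23.2 and 23.1 FPKM in CTRL and 23.4 and 21.2 FPKM in KO, and the genotypes overlapped.

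**Figure D3:**
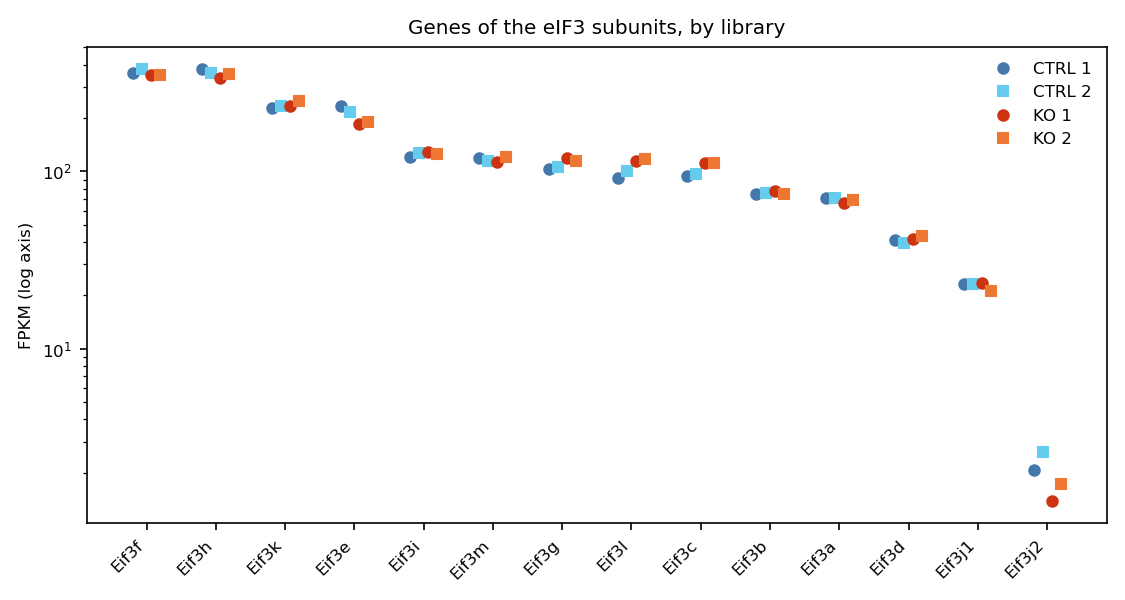
FPKM (log axis) of the 14 eIF3 genes in each of the 4 libraries, with genes in order of level. Levels span from Eif3f and Eif3h at 337 FPKM or more to Eif3j2 at 2.63 FPKM or less, and CTRL and KO points lie close to each other against this range.

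Of the 13 eIF4 genes, 11 were tested; Eif4g3 fell and the other 10 did not pass the threshold (limma, median log2 fold change 0.030). The cap-binding protein Eif4e had 28.2 and 25.0 FPKM in CTRL and 27.5 and 26.8 FPKM in KO, with overlapping genotypes (log2 fold change 0.030, 95% interval -0.17 to 0.23). Eif4e2, which binds the cap but not eIF4G and acts mostly as a repressor, had 18.3 and 17.3 FPKM in CTRL and 21.6 and 20.6 FPKM in KO (log2 fold change 0.23, SE 0.067, adjusted p = 0.0807). The FPKM ratio of Eif4e2 to Eif4e was 0.649 and 0.691 in CTRL and 0.787 and 0.768 in KO, so the ratio lay above that of both CTRL libraries in both KO libraries. Eif4e3 had 18.1 and 16.9 FPKM in CTRL and 19.1 and 19.5 FPKM in KO.

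Paralogs of the helicase differed in sign. Eif4a1 had 277 and 263 FPKM in CTRL and 246 and 259 FPKM in KO (log2 fold change -0.094, SE 0.059). Eif4a2 had 226 and 203 FPKM in CTRL and 178 and 173 FPKM in KO (log2 fold change -0.29, SE 0.070, adjusted p = 0.0619 by limma). Eif4a3, a subunit of the exon junction complex rather than of eIF4F, had 86.7 and 82.7 FPKM in CTRL and 105 and 98.4 FPKM in KO (log2 fold change 0.26, SE 0.060, adjusted p = 0.0582). The FPKM ratio of Eif4a3 to Eif4a2 was 0.384 and 0.407 in the CTRL libraries and 0.587 and 0.569 in the KO libraries, a difference of 0.54 on the log2(FPKM + 1) scale. With 2 libraries per genotype an exact permutation test cannot go below a p of 1 in 3 for such ratios, so they are given without a test. Of the 100-base stretches of Eif4a1 and Eif4a2, 22.6% and 5.9% occur in other genes.

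Among the scaffolds, Eif4g1 had 68.7 and 72.5 FPKM in CTRL and 69.6 and 69.0 FPKM in KO, with overlapping genotypes. Eif4g2, which lacks the part that binds eIF4E, was the most abundant with 137 and 142 FPKM in CTRL and 156 and 145 FPKM in KO (log2 fold change 0.11, SE 0.060). The FPKM ratio of Eif4g1 to Eif4g3 was 1.42 and 1.45 in CTRL and 1.82 and 1.71 in KO. Eif4g1 was thus the more abundant of these full-length scaffold genes in every library, and by more in both KO libraries. Of the helicase cofactors, Eif4b had 128 and 132 FPKM in CTRL and 117 and 116 FPKM in KO (log2 fold change -0.15, SE 0.051, adjusted p = 0.104), and Eif4h had 87.3 and 92.0 FPKM in CTRL and 96.5 and 97.2 in KO (log2 fold change 0.11, SE 0.055, adjusted p = 0.222).

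**Figure D4:**
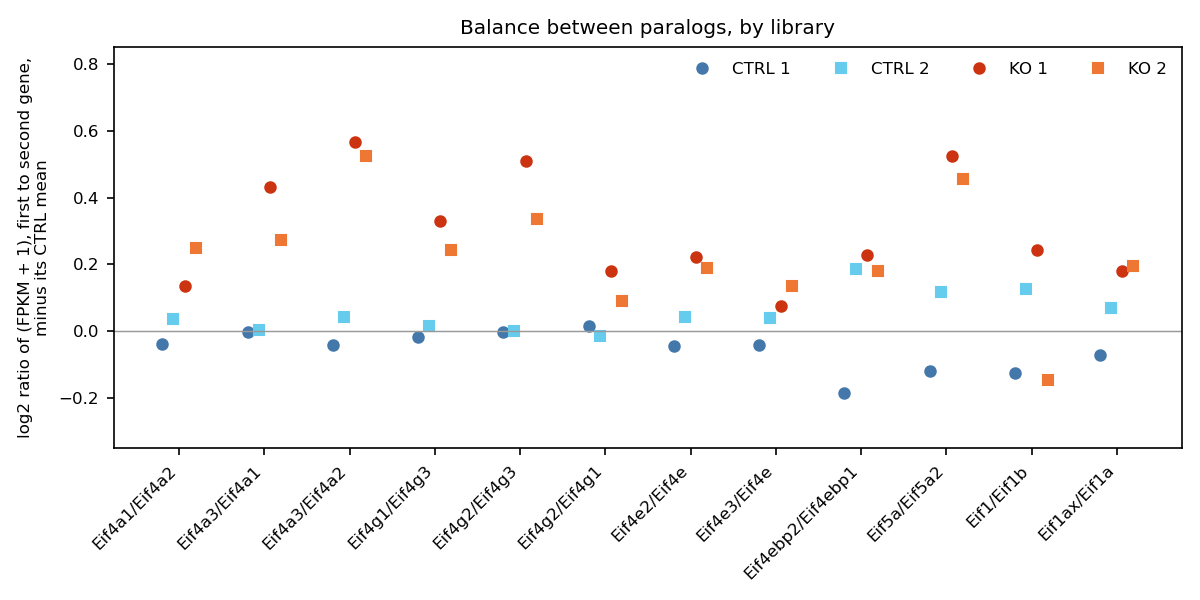
Log2 ratio of (FPKM + 1) of the first gene to the second in each of 12 pairs of related members, with the CTRL mean of the pair set to 0; each symbol is 1 library. The KO symbols lie clear of the CTRL symbols in 10 pairs, most widely for Eif4a3/Eif4a2 (0.54), Eif5a/Eif5a2 (0.49) and Eif4g2/Eif4g3 (0.42), and overlap for Eif4ebp2/Eif4ebp1 and Eif1/Eif1b. Among single genes, 64.5% of all tested had no overlap, and some genes occur in more than 1 pair, so the pairs are not separate observations.

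The 4 proteins that bind eIF4E to repress or move it gave no call (limma). At an unadjusted p under 0.05, 1 was higher and 0 were lower, against 16.3% and 18.4% of all genes tested. Eif4ebp2 was the main repressor gene by level, with 89.5 and 104 FPKM in CTRL and 102 and 98.0 FPKM in KO. Eif4ebp1 had 14.6 and 12.9 FPKM in CTRL and 12.3 and 12.2 FPKM in KO (log2 fold change -0.15, SE 0.081). Eif4ebp3 had 19.1 and 19.1 FPKM in CTRL and 16.8 and 18.1 FPKM in KO, and 62.8% of its 100-base stretches belong as well to a readthrough transcript. Eif4enif1, which carries eIF4E into the nucleus and to P-bodies, had 30.6 and 31.3 FPKM in CTRL and 35.9 and 36.9 FPKM in KO (log2 fold change 0.23, SE 0.056, adjusted p = 0.0623), and Drg1 overlaps it on the other strand.

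Elongation factors were the most abundant members. Eef1a1 had 4532 and 4537 FPKM in CTRL and 4157 and 4038 FPKM in KO, which was 40.9% and 40.6% of the family's FPKM in CTRL and 38.7% and 38.3% in KO. Both KO libraries were below both CTRL libraries, but the difference did not pass the threshold (log2 fold change -0.15, SE 0.071, adjusted p = 0.211 by limma), and 16.3% of its 100-base stretches occur in 10 other genes. Eef2 had 1068 and 1147 FPKM in CTRL and 1126 and 1098 FPKM in KO, with a 95% interval of -0.16 to 0.18 for the log2 fold change. Of the eEF1B genes, Eef1b2 had 295 and 285 FPKM in CTRL and 249 and 254 FPKM in KO (log2 fold change -0.20, SE 0.054, adjusted p = 0.0704). Eef1g had 459.5 and 458 FPKM in CTRL and 429 and 423 FPKM in KO (log2 fold change -0.11, SE 0.052), and 32.4% of its stretches occur in other genes. Eef1d had 60.2 and 62.2 FPKM in CTRL and 58.6 and 65.6 FPKM in KO, and KO 1 was the lowest and KO 2 the highest library. Eef1e1, which sits in the complex of tRNA synthetases, had 20.4 and 17.6 FPKM in CTRL and 16.9 and 17.5 FPKM in KO. Of the 8 elongation genes tested, Eif5a rose and the other 7 did not pass, with a median log2 fold change of -0.12.

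Of the enzymes that modify eEF1A and eEF2, none of the 5 tested passed the threshold (limma). At an unadjusted p under 0.05, 0 were higher and 1 was lower, against 16.3% and 18.4% of all genes tested. Eef2kmt, a lysine methyltransferase of eEF2, had 10.1 and 10.3 FPKM in CTRL and 7.90 and 8.14 FPKM in KO (log2 fold change -0.31, SE 0.070, adjusted p = 0.0548). The libraries of the genotypes did not overlap, and 14.8% of its 100-base stretches occur in Alg1 and Gm15983, which overlap it on the other strand. Eef1akmt1, a methyltransferase of eEF1A and the most abundant of the group, had 28.6 and 28.9 FPKM in CTRL and 25.6 and 28.0 FPKM in KO. The other methyltransferase genes Eef1akmt2 and Eef1aknmt had log2 fold changes of -0.11 and -0.18, with KO below CTRL in both. Eef2k, the kinase that turns eEF2 off, had 2.29 and 2.54 FPKM in CTRL and 2.51 and 2.69 FPKM in KO, and the genotypes overlapped.

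Hypusine on eIF5A and diphthamide on eEF2 are modifications made on no other proteins, and their pathways were looked at next. Of 9 genes, Dph2 fell and the other 8 did not pass by limma, while 9.75% of all genes tested passed. At an unadjusted p under 0.05, 1 was higher and 6 were lower, against 16.3% and 18.4% of all genes tested. The genotypes did not overlap in any of the 9, against 64.5% of all genes tested without overlap. Dph2, which acts at the start of diphthamide synthesis, had 8.73 and 8.18 FPKM in CTRL and 5.10 and 5.53 FPKM in KO (log2 fold change -0.58, SE 0.084, adjusted p = 0.0351 by limma). Log2 fold changes were -0.39 for Dph1, -0.46 for Dph5, -0.39 for Dph6, -0.47 for Dph7, -0.27 for Dnajc24 and 0.082 for Dph3, with adjusted p from 0.0516 to 0.442. KO was below CTRL in 6 of these 7 diphthamide genes and above it in Dph3. The hypusine enzymes, named after their values were seen, had KO above CTRL: Dhps had 17.9 and 15.9 FPKM in CTRL and 18.7 and 19.8 FPKM in KO (log2 fold change 0.18, SE 0.082, adjusted p = 0.196). Dohh had 16.2 and 18.5 FPKM in CTRL and 22.9 and 22.1 FPKM in KO (log2 fold change 0.36, SE 0.082, adjusted p = 0.0560).

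**Figure D5:**
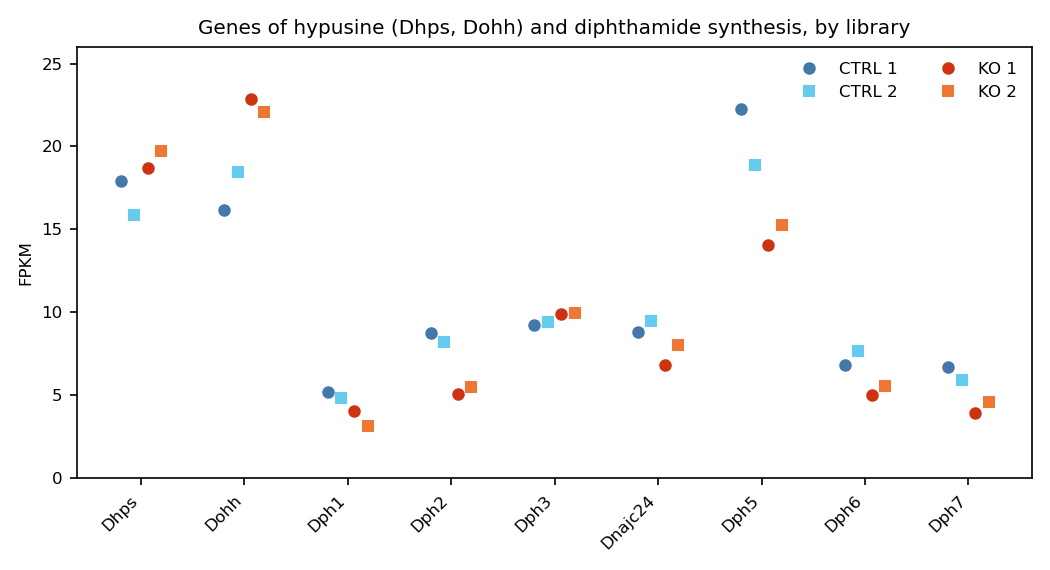
FPKM in each of the 4 libraries of the genes that make hypusine (Dhps, Dohh) and diphthamide (the rest). KO symbols lie above CTRL symbols for Dhps, Dohh and Dph3 and below them for the other 6 genes, of which Dph2 passed the threshold.

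Other genes of translation were read from the same fit. Over the lists of 83 genes, which include those for hypusine and diphthamide, 81 were tested, 5 were higher and 1 was lower, with a median log2 fold change of -0.014. These 6 genes (7.41%) compare with 9.75% of all genes tested. Pabpc1, the poly(A)-binding protein that contacts eIF4G, had 742 and 762 FPKM in CTRL and 916 and 935 FPKM in KO (log2 fold change 0.30, SE 0.057, adjusted p = 0.0430 by limma). The other 9 genes of its list, for poly(A)-binding proteins and partners of eIF4F, did not pass. Mknk2, a kinase of eIF4E that docks on eIF4G, had 173 and 187 FPKM in CTRL and 234 and 223 FPKM in KO (log2 fold change 0.34, SE 0.064, adjusted p = 0.0424). The other 10 tested genes of the list for mTORC1 and the eIF4E kinases, Mtor among them, did not pass. Of the 11 tested genes of that list, 9 had log2 fold changes below 0 and 2 above, against 6128 and 5271 of all genes tested. The median of the list was -0.0935, against -0.022 over all genes. Among 22 genes for cytosolic tRNA synthetases and their complex, Hars (36.5 and 33.9 FPKM in CTRL and 44.6 and 45.7 in KO, log2 fold change 0.35) and Gars (42.6 and 42.2 FPKM in CTRL and 50.5 and 53.5 in KO, log2 fold change 0.29) were higher. Among 9 mitochondrial factors, Tufm, the mitochondrial counterpart of eEF1A, was higher (46.7 and 48.0 FPKM in CTRL and 60.3 and 60.1 in KO, log2 fold change 0.34, SE 0.052, adjusted p = 0.0374). None of the 9 termination and recycling genes passed (limma). At an unadjusted p under 0.05, 2 were higher and 2 lower, against 16.3% and 18.4% of all genes tested.

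No gene of the integrated stress response, which acts through eIF2 phosphorylation, passed the threshold among 11 tested (limma), against 9.75% of all genes tested. At an unadjusted p under 0.05, 1 was higher and 1 lower, against 16.3% and 18.4% of all genes tested. The median log2 fold change of the 11 was 0.11, against -0.022 over all genes. In 8 of them the genotypes did not overlap, 5 with KO above and 3 with KO below, against 64.5% of all genes tested. Atf4, whose mRNA is translated when eIF2 is phosphorylated, had 120.2 and 121 FPKM in CTRL and 139.7 and 130.2 FPKM in KO (log2 fold change 0.16, SE 0.059, adjusted p = 0.126). Ddit3, a target of Atf4, had 27.9 and 25.5 FPKM in CTRL and 28.1 and 24.6 FPKM in KO, with overlapping genotypes. Of 109 cytosolic ribosomal protein genes tested, 0 were higher and 7 lower by limma (6.42% in all; 4 and 39 at an unadjusted p under 0.05), with a median log2 fold change of -0.15. Their summed FPKM was 91902 and 94214 in CTRL and 83131 and 85674 in KO. Among those that fell were Rpl29 (-0.68), Rpl5 (-0.36), Rpl36a (-0.35) and Rps4x (-0.35), given as log2 fold changes.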

How the data were processed

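Per the labels and the methods of the study, the authors enriched RNA with oligo(dT), sequenced 150 bp read pairs, mapped them to mm10 (GRCm38) with HISAT2 2.2.1, counted reads per gene with featureCounts 2.0.1 and compared genotypes with edgeR 3.34.0. The deposited values used here were FPKM, scaled by the authors, and the gene lengths, use of strand and handling of reads that map to several genes were not given in the sources used here. Control columns named WT were read as the CTRL libraries of the same number.

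Here KO was compared with CTRL by limma 3.58.1 (R 4.3.3; lmFit and eBayes with an intensity trend, two-sided) on log2(FPKM + 1), which understates changes of low genes, over genes that reached an FPKM of 1 in 2 or more libraries. The study's count test was not the main test because the values are not counts. All 19888 genes above 0 came out as whole reads (100%, within a relative tolerance of 1e-09), which allowed limma-voom on recovered reads as an alternative and gave reads per library as minimum values, because a factor shared by the 4 values of a gene is invisible. The 2 libraries per genotype set the precision: the median standard error was 0.067 on the log2 scale for members and 0.087 for all genes.

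Members and lists were chosen with earlier results of these data known. The text gives every member by value, range or count. Beyond members it names Setd2, marker genes, and from each list of other translation genes those past the threshold (the 5 largest where there were more, of which 1 is not reported here). The other genes named from these lists, Mtor, Atf4, Ddit3, Dhps, Dohh and the other diphthamide genes among them, were chosen after their values were seen. Positions, overlaps and shared 100-base stretches came from GENCODE vM21 on GRCm38. Alternatives were another pseudocount, filters, scalings, variance models, removal of the exon length trend, the replicate number as a block, and leaving out each library. Python 3.11.15, numpy 2.4.6, pandas 2.3.3 and matplotlib 3.10.9 were used.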

Additional observations from a re-analysis of the deposited data

How the results depend on the processing

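Of the 63 tested members, 40 kept the sign of their log2 fold change in the reported fit and in each of the 15 alternatives that tested them (a mean FPKM above 5 left 59 members) and 23 changed it in at least 1, and 12 passed the threshold in at least 1 alternative. No count of calls held throughout. With all genes above 0 tested, 0 genes passed in either direction (limma; 10 members higher and 6 lower at an unadjusted p under 0.05), with 0 members, 0 other translation genes and 0 ribosomal protein genes past the threshold. Without the variance trend 315 of all genes were higher and 364 lower by limma. There 0 members passed (8 higher and 7 lower at an unadjusted p under 0.05), 0 other translation genes were higher and 1 ribosomal protein gene was lower. The causes of these shifts were not tested.

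On the recovered reads 881 genes were higher and 1008 lower, with 6 and 3 members, 8 and 7 other translation genes and 22 ribosomal protein genes lower. With a mean FPKM above 5, 654 of all genes were higher and 622 lower, 14.8% of those tested against 9.75% in the main fit. There 2 members were lower, 8 and 3 other translation genes were higher and lower, and 1 and 18 ribosomal protein genes. With robust eBayes 744 of all genes were higher and 753 lower, 13.1% of those tested against 9.75% in the main fit. There 2 members and 3 other translation genes were lower, and 1 and 17 ribosomal protein genes were higher and lower. With median-ratio scaling 4 members were higher, and 712 of all genes were higher and 470 lower. The medians were then 0.0094 for members, 0.027 for eIF3, 0.054 for eIF4 and -0.095 for elongation genes. With quantile normalization 1 member was higher and 5 were lower, beside 524 higher and 479 lower of all genes. In that fit 3 other translation genes were higher and 2 and 15 ribosomal protein genes were higher and lower. The medians were -0.046 for members, -0.077 for eIF3 and 0.0051 for eIF4. With each library scaled to the same sum, 570 of all genes were higher and 647 lower, and 2 other translation genes were lower. The medians were then -0.027 for members and -0.011 for eIF3. The median of members with a mean FPKM above 5 was -0.0018. With the exon length trend removed 536 of all genes were higher and 341 lower, and 1 member was higher and 0 were lower. The medians were then -0.0001 for members and 0.075 for eIF4.

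The genotypes share replicate numbers in the labels, which do not say that a number marks a shared source. Over genes, same-numbered libraries deviated together with Pearson 0.342 and Spearman 0.055, and with 2 pairs the numbers were not taken as pairs. In the fit that took the replicate number as a block, 968 of all genes rose and 805 fell, as did 4 and 2 members, 8 and 4 other translation genes and 3 and 12 ribosomal protein genes. The members it added were Eif3l and Eif4a3 as higher and Eif4a2 as lower.

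Log2 fold changes near 0 changed sign. With quantile normalization they were -0.046 for Eef1d, 0.048 for Eif2ak3, -0.039 for Eif2s2, -0.078 for Eif3b, -0.069 for Eif3i, -0.077 for Eif3k, -0.040 for Eif4ebp2 and -0.030 for Eif5. Same-sum scaling gave -0.0073 for Eef2, -0.0045 for Eif2b4, -0.0037 for Eif2b5, -0.0050 for Eif2s2 and -0.0058 for Eif3b. Median-ratio scaling gave 0.0094 for Eif2a, 0.0079 for Eif2ak3, 0.0048 for Eif2s1 and 0.022 for Eif3m. Removing the exon length trend gave -0.0021 for Eef2, 0.033 for Eif2a, 0.031 for Eif2ak3, -0.022 for Eif2b4, -0.022 for Eif2b5, 0.0066 for Eif2s1, 0.0079 for Eif3a, -0.0001 for Eif3b and 0.037 for Eif4g1.

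Leaving out 1 library at a time, 0 to 1 genes were higher and 0 to 1 lower, with 0 members, 0 other translation genes and 0 ribosomal protein genes past the threshold in either direction. The medians ran from -0.032 to 0.012 for members, 0.0099 to 0.096 for start site and joining factors, -0.019 to 0.017 for eIF2 and eIF2B, -0.13 to 0.026 for eIF2 kinases, -0.0069 to 0.015 for eIF3, 0.013 to 0.073 for eIF4, -0.059 to 0.017 for proteins that bind eIF4E, -0.13 to -0.071 for elongation genes and -0.19 to -0.038 for their modifiers. Log2 fold changes that changed sign ran from -0.063 to 0.099 for Eef1d, -0.045 to 0.059 for Eef2, -0.22 to 0.065 for Eif1, -0.28 to 0.027 for Eif1a, -0.020 to 0.14 for Eif1ax, -0.088 to 0.060 for Eif2a, -0.16 to 0.13 for Eif2ak3, -0.069 to 0.012 for Eif2b1, -0.0082 to 0.026 for Eif2b4, -0.067 to 0.087 for Eif2b5, -0.059 to 0.021 for Eif2s1, -0.031 to 0.049 for Eif2s2, -0.017 to 0.033 for Eif3b, -0.12 to 0.016 for Eif3j1, -0.041 to 0.037 for Eif3m, -0.055 to 0.12 for Eif4e, -0.049 to 0.16 for Eif4ebp2, -0.063 to 0.013 for Eif4g1 and -0.11 to 0.17 for Eif5b. The spread between 2 libraries per genotype, with a median standard error of 0.067 for members, set what could be called.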
